A study of Drosophila melanogaster with 4 samples.

Results

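The Hox genes of Drosophila encode homeodomain transcription factors that give each segment along the head-to-tail axis its identity. They lie in 2 clusters on the right arm of chromosome 3 (3R), the Antennapedia complex and the bithorax complex, and are regulated by long stretches of non-coding DNA with enhancers, boundary elements and Polycomb response elements. CG16778, listed under the symbol lov (jim lovell), encodes a BTB/POZ-domain protein, and proteins of this class include several that bind such regulatory DNA. The peaks described here are those called by ChIP-seq of CG16778 that fell inside the 2 Hox complexes.

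Members were the peaks of the authors' list whose midpoint lay, in release 5 coordinates, on 3R from 2480000 to 2840000 (Antennapedia complex, 360 kb) or from 12480000 to 12810000 (bithorax complex, 330 kb). Of the 4164 peaks in the list, 7 met this rule. All 7 lay in the Antennapedia complex, and the bithorax complex held 0. Arm 3R as a whole had 1013 peaks, so 1006 lay outside both complexes.

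The study mapped CG16778 by ChIP-seq in whole embryos with 2 ChIP libraries (rabbit polyclonal antibody against CG16778) and 2 input DNA libraries, and the authors' result is 1 peak list for the series. All libraries came from the same stock, whose alleles are cn[1], bw[1], sp[1], Gr22b[1], Gr22d[1] and CG33964[R4.2] on the second chromosome, y[1] and oc[R3.2] on the X, and Rh6[1], GstD5[1], MstProx[1], LysC[1] and lab[R4.2] on the third, so the stock carries a named allele of a Hox gene, lab. The sex was given as unknown. The stage label reads 0 to 8 h, whereas the protocol names an egg laying of 8 to 16 h, and these labels differ. The embryos were whole, so a site bound in a few cells and a site bound weakly in many cannot be told apart. The list gives no value per library. No replicate error, read depth or test between groups was therefore available, and every comparison with the rest of 3R is a description of this list.

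In the RefSeq gene table of release 6, the 8 Hox genes stand on 3R in the order lab, pb, Dfd, Scr, Antp, Ubx, abd-A and Abd-B. The first 5 belong to the Antennapedia complex: labial, proboscipedia and Deformed act in the head, Sex combs reduced in the labial segment and the first thoracic segment, and Antennapedia in the thorax. The last 3 form the bithorax complex: Ultrabithorax acts in the posterior thorax and the anterior abdomen, and abdominal-A and Abdominal-B in the abdomen. Between lab and Antp the table lists 41 other genes, 17 of them protein-coding and 16 of them long non-coding RNAs. They include zen and bcd, which act in early patterning, and the segmentation gene ftz. Between Ubx and Abd-B it lists 14, with 4 protein-coding genes and 7 long non-coding RNAs. The peaks carry release 5 coordinates and were not assigned to single genes here, and no sequence of the peaks was analysed here.

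The bithorax complex was free of called CG16778 peaks from end to end. Its count of 0 in 330 kb allows, at 3 peaks, up to 0.909 peaks per 100 kb (counting error only), against 3.63 per 100 kb over the whole of 3R. This limit treats peaks as independent of one another. On 3R, 71.9% of peaks had another peak centre within 5 kb, so the limit is too low for grouped peaks. None of the 6 pieces of the bithorax complex (60 kb each, the last one shorter) held a peak. When windows of 330 kb were stepped by 10 kb along 3R, 44 of 2758 held no peak, which is 1.6%, and the windows had a median of 10 peaks (quartiles 7 and 16, highest 40). The 44 windows overlap one another and came from 8 separate stretches, of which the bithorax complex is one. Stretches of at least this length without a peak made up 11.0% of the arm between its first and last peak. Such a region was thus not found at Ubx, abd-A and Abd-B alone.

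**Figure D1:**
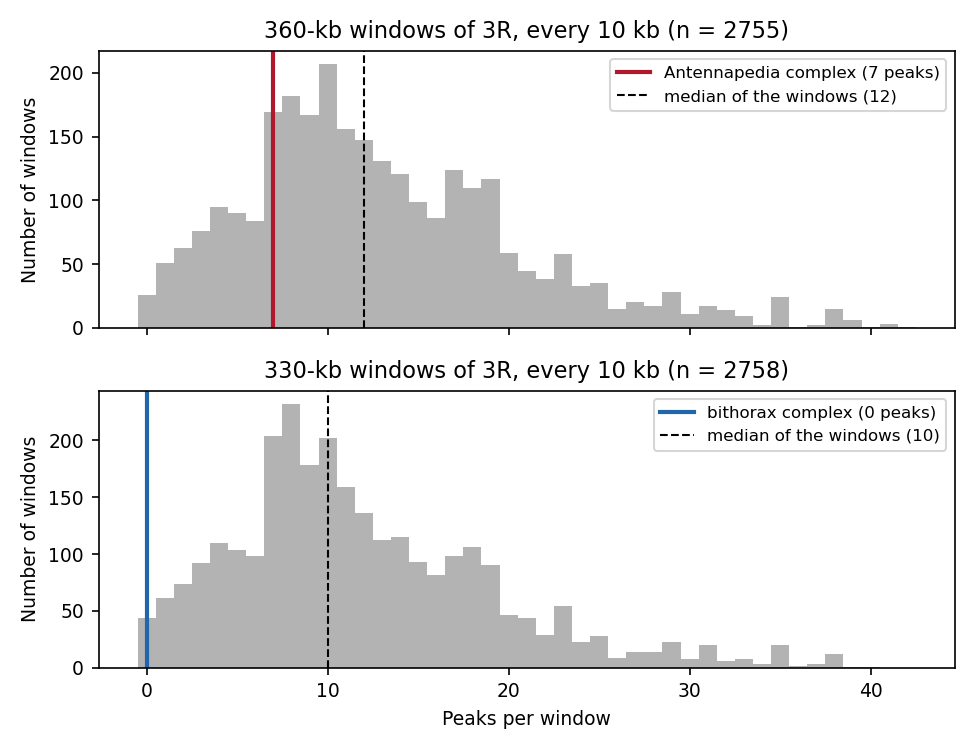
Distribution of the number of peaks in windows of 360 kb (upper) and 330 kb (lower) stepped by 10 kb along 3R, with the x axis in peaks per window and the y axis in number of windows. Coloured lines mark the Antennapedia complex (7 peaks) and the bithorax complex (0 peaks), and dashed lines the medians of 12 and 10.

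The stretch without peaks was longer than the complex itself. It ran from 12469963 to 12868016, which is 398 kb, and was the third longest of the 1012 stretches between neighbouring peaks on 3R, whose median was 5354 bp. Over 2L, 2R, 3L and 3R together it ranked 7 of 3477. The longest stretch on 3R was 493 kb and the second 411 kb. The peak-free DNA extended 10.0 kb beyond the window on the side of lower coordinates and 58.0 kb on the other side. The peak at the lower edge lay at 12469698 to 12469962, was 265 bp wide and scored 12.08. The peak at the upper edge lay at 12868017 to 12868597, was 581 bp wide and scored 10.35. Both scores were below the median of the list, 12.33, so no strong peak bordered the stretch.

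The flanks of the bithorax complex were not empty. Stretches of 330 kb held 11 peaks directly before the window and 12 directly after it, each close to the median of 10 for 3R. The nearest peak with a score above 50 lay at 12359441 to 12359909, outside the complex by 120 kb, and scored 70.01 with a width of 469 bp. It ranked above every peak of the Antennapedia complex. This peak was chosen for mention after its value had been seen.

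**Figure D2:**
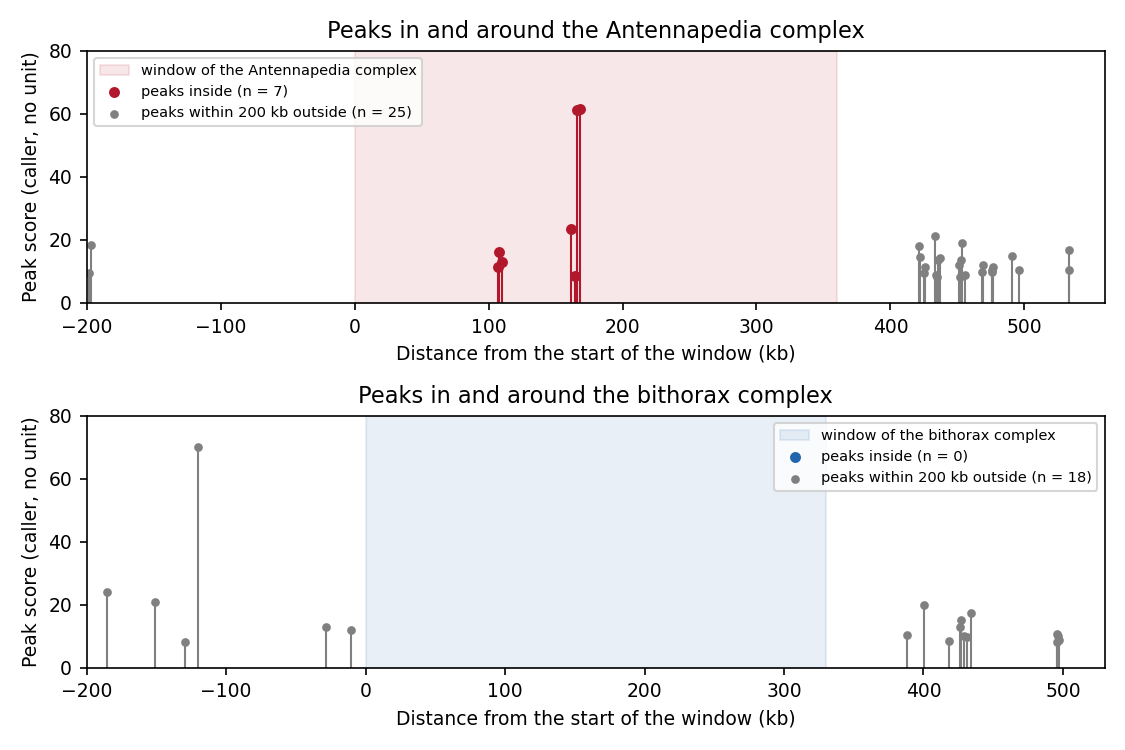
Peaks in and around the Antennapedia complex (upper) and the bithorax complex (lower), with the distance from the start of each window in kb on the x axis and the authors' score, which has no stated unit, on the y axis. Shading marks the windows, coloured stems the 7 member peaks and grey stems the peaks within 200 kb outside, and the shaded bithorax window holds no stem.

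In the Antennapedia complex the 7 peaks formed a group of 3 and a group of 4 (gaps of up to 5 kb joined), and the rest of the 360 kb was without peaks. The group of 3 lay from 2587107 to 2590552 and spanned 3.45 kb. The group of 4 lay from 2641556 to 2648840 and spanned 7.29 kb. All 7 fell between 107 and 168 kb from the start of the window, in 2 of its 6 pieces of 60 kb, and the first piece and the last 3 pieces held 0. Such grouping is common on this arm: all 7 had another peak centre within 5 kb, as had 71.9% of all 3R peaks.

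In the group of 3 the scores ran from 11.43 to 16.23. The first peak, at 2587107 to 2587552, was 446 bp wide and scored 11.43. The second, at 2587710 to 2588367, was 658 bp wide and scored 16.23, and only 157 bp separated it from the first. The third, at 2589572 to 2590552, scored 13.10 and, at 981 bp, was the widest of the 7. On 3R these scores ranked 571, 251 and 425 of 1013, so this group lay in the middle of the arm's range.

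The group of 4 held the highest scores of either complex. Its first peak, at 2641556 to 2642080, was 525 bp wide and scored 23.55. The second, at 2644052 to 2644467, was the narrowest and lowest of the 7, with 416 bp and a score of 8.48. The third, at 2645562 to 2646297, was 736 bp wide and scored 61.33. The fourth, at 2648070 to 2648840, was 771 bp wide and scored 61.49. The last 2 thus scored almost alike, about 5.04 and 5.05 times the 3R median of 12.17, and ranked 6 and 5 on 3R and 35 and 34 in the list. The lowest of the group, by contrast, ranked 918 on 3R.

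The pair of high-scoring peaks was close together for peaks of that rank. Their centres lay 2526 bp apart. In the whole list, 62 peaks scored above 50, and only 3 neighbouring pairs of them lay within 10 kb of each other. The Antennapedia pair was the closest of these, followed by a pair on 3L at 4146 bp and another on 3R at 4624 bp. Of the 27 groups of 4 peaks on 3R, this was the 1 with a peak above 50, and the median of the highest score in these groups was 18.23. Among the 119 groups of 3 or more peaks on 3R, this one included, 4 held a peak above 50. The group size of 4 is that of the member group itself. The thresholds of 50 and 10 kb were chosen with the values in view, so these counts describe the pair and test nothing.

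By rank of score the 7 peaks were spread from 5 to 918 of the 1013 on 3R. Their median score was 16.23 (lowest 8.48, quartiles 12.27 and 42.44, highest 61.49), against 12.15 for the other 1006 (lowest 6.48, quartiles 9.77 and 16.15, highest 289.64). Above the median of the list lay 5 of the 7, against a background of 48.4% of 3R peaks, and above its upper quartile of 16.45 lay 3 of the 7, against 24.2%. The same 3 exceeded 20, against 14.5% of 3R peaks. Above 50 lay 2 of the 7, against 1.28%. Windows of 360 kb with 2 or more such peaks made up 2.58% of the 2755 on 3R (71 windows), and 36 of these 71 held the Antennapedia pair itself. With 7 peaks in 2 groups, these shares rest on very few sites.

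By their median, the peaks were wide for this arm. Their median width was 658 bp (narrowest 416 bp, widest 981 bp), against 358 bp for the other 3R peaks (narrowest 201 bp, widest 2351 bp). All 7 were wider than the 3R median of 359 bp, which 49.9% of 3R peaks exceed. Those of 416, 446 and 525 bp still lay between the 3R quartiles of 259 and 581 bp, and the others lay above them. Of the 2729 windows of 360 kb that held peaks, 4.95% had a median width of 658 bp or more. This share includes overlapping windows that hold the 7 peaks themselves. Width and score did not go together at each peak: the widest scored 13.10, while the pair above 61 had widths of 736 and 771 bp. The other 11 peaks of 3R with scores above 50 had a median width of 943 bp (narrowest 469 bp, widest 1816 bp), and 7 of them were wider than both peaks of the pair.

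**Figure D3:**
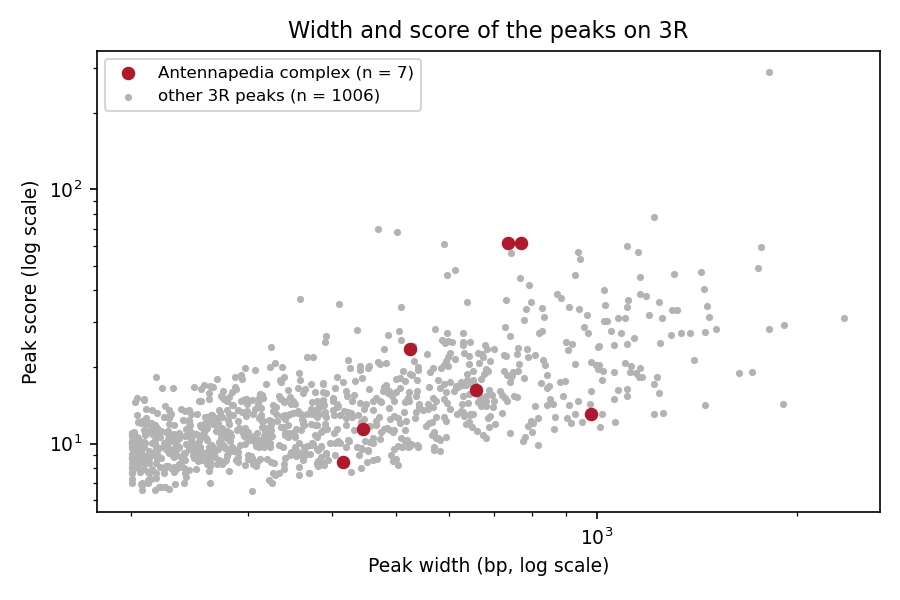
Width in bp (x, log scale) and score (y, log scale) of the 1013 peaks on 3R, with the 7 peaks of the Antennapedia complex in red and the other 1006 in grey. The red points all lie to the right of the median width of 359 bp, and 2 of them lie above a score of 61.

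The number of peaks in the Antennapedia complex lay in the lower part of the range of 3R. Its 7 peaks correspond to 1.94 per 100 kb, against 3.63 per 100 kb for the arm. Windows of 360 kb had a median of 12 peaks (quartiles 8 and 17, lowest 0, highest 42), and 654 of 2755, or 23.7%, held 7 or fewer. The covered length was nearer the middle, since the 7 peaks covered 4533 bp, against a median of 5425 bp over the windows, and 38.2% of the windows had as little or less. The highest score of the complex was reached or exceeded in 5.31% of the windows with peaks, and the median of the highest scores was 29.31. These shares include windows that overlap the complex and so meet its own peaks. For the count alone, 22.6% of windows overlapping neither Hox complex held 7 or fewer. The count of the complex was thus just under the lower quartile of the windows, and some of its peaks scored high.

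Spacing within the complex was short inside the groups and long between them. The 6 distances between neighbouring centres were 709, 2024, 51756, 2442, 1670 and 2526 bp in order along the arm. Their median was 2233 bp, against 5843 bp over 1004 distances on 3R that involve no member. Of the 169 windows of 360 kb that held exactly 7 peaks, 29.0% had them in 2 groups or fewer when centres more than 5 kb apart were counted as separate groups, and the median was 4 groups. The 169 windows include overlapping windows that hold the 7 member peaks themselves, and these were not taken out. The share therefore does not say how common 2 groups are in other DNA with this count.

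Long stretches without peaks surrounded both groups. Within the window, the first 107 kb up to the group of 3 held no peak. The 51.0 kb between the groups, from 2590553 to 2641555, also held none, nor did the last 191 kb, from 2648841 to 2840000. The outer stretches ran on past the window. The one below the group of 3 began at 2283427 and was 304 kb long, rank 10 of 1012 on 3R, and the one above the group of 4 ended at 2900644 and was 252 kb long, rank 17. The 360 kb before the window held 10 peaks and the 360 kb after it 23, so the neighbouring DNA carried more peaks than the complex did. Of the 119 groups of 3 or more peaks on 3R, 12 had at least 50 kb without a peak on both sides. Both Hox groups were among these 12, but on their inner side they share the same stretch of 51.0 kb. It only just exceeds the cut of 50 kb, and a slightly higher cut would leave both out. Of the 12, 2 held a peak above 50, and the Hox group of 4 was itself among these 2. These counts therefore describe the groups and test nothing.

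**Figure D4:**
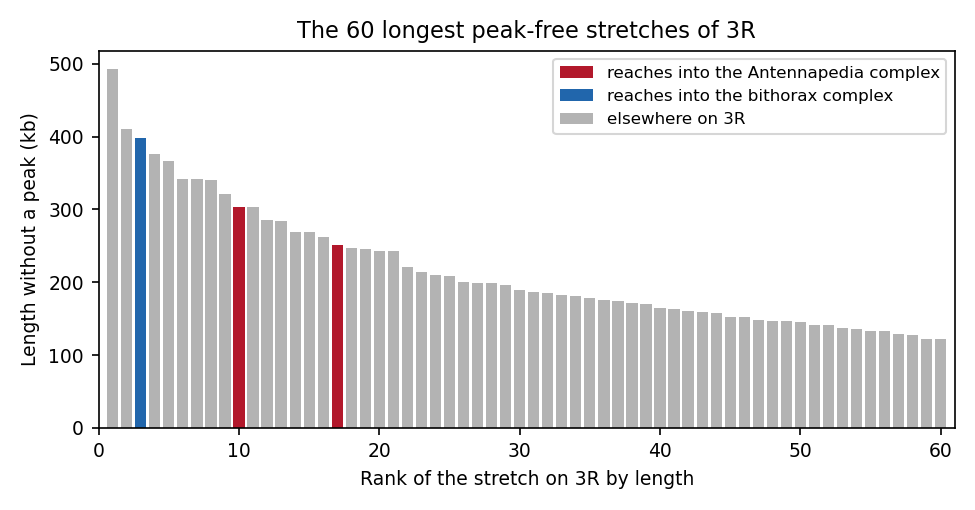
Length in kb of the 60 longest stretches without a peak on 3R, in order of rank. The bithorax stretch (blue) is rank 3 with 398 kb, and the stretches on either side of the Antennapedia groups (red) are rank 10 with 304 kb and rank 17 with 252 kb.

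Set side by side, the Antennapedia complex had 7 peaks in 360 kb, and the bithorax complex had 0 in 330 kb. Neither value has replicate error, and the difference was not tested. Sites that did not reach the authors' threshold are absent from the list, so the count of 0 says that no peak was called there, not that no CG16778 was bound.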

How the data were processed

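The deposited data used here are 1 peak list for 2 ChIP and 2 input libraries. Per the file headers, coordinates are those of FlyBase release 5, and the caller named is MACS. Per the submitters' processing notes, the tools were CASAVA 1.7.0.2 and 1.7.0.3, BWA and MACS2, with the build BDGP5. Thresholds, the use of the inputs and any pooling of replicates were not given in the sources used here. The deposited score of each peak has no stated unit. As the authors' own value, it served here for description and ranking inside this list alone.

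Python 3.11.15 with numpy 2.4.6, pandas 2.3.3, scipy 1.17.1 and matplotlib 3.10.9 was used. Positions count from 1, the centre of a peak was its midpoint, and a stretch without peaks was measured from edge to edge. Each complex was set against all windows of its own length stepped by 10 kb between the first and last peak of 3R, in place of random windows and without a p-value. The counting functions were tested on simulated data. The RefSeq table of release 6 gave names and gene order only. The rule for naming was to name every peak if both windows held 40 or fewer. Windows, members and lists were chosen with earlier results of these data known.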

Additional observations from a re-analysis of the deposited data

How the results depend on the processing

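Of 33 comparisons with an alternative setting, 25 gave a value within 1.5 times the reported one (counts and stretches), within 1 SD over peaks or distances (medians) or within the exact 95% binomial interval over windows (places), and 8 did not. The windows overlap, so that interval is too narrow, and a place outside it is not shown to differ. Part of the 25 could not have come out otherwise, so their number does not measure stability. An empty bithorax window stays empty when peaks are filtered by score or merged, or when it is narrowed. The Antennapedia score median rested on the same 7 peaks in each setting. The SD of the distances includes 1 of 51756 bp, so even a median spacing of 3318.5 bp, against 2232.5 bp, counted as within it. In the Antennapedia complex, 3 peaks were left above a score of 20 and 2 after peaks within 5000 bp were merged, both by construction. Of the windows of 360 kb, 20.8% held as few peaks or fewer when laid end to end, 27.1% when taken from 2L, 2R, 3L and 3R, and 50.4% when peaks above the median score alone were counted, against 23.7% as reported, and the cause of the last shift was not tested. The low count of the Antennapedia complex is thus not seen among higher-scoring peaks. The bithorax window widened by 20 kb on each side took in 1 peak, the one at its lower edge. Of the windows of 330 kb, 0% held no peak when laid end to end, and 4.57% held none above the median score, against 1.6% as reported. Windows laid end to end can straddle the ends of a long stretch without peaks, and the bithorax stretch was itself missed in this way. Spacing, width and score medians could not be given for the bithorax complex, which has no peak. No paired analysis was possible because peaks carry no value for single libraries, so replicates could not be left out in turn either. Depth is unknown, so sites under the caller's threshold cannot be judged.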
